A study of Rattus norvegicus with 6 samples.

Results

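The transcripts examined were those of respiratory complex I, taken as the gene symbols that start with Nduf. The rule found 44 of the 17487 symbols in the deposited count table. They comprised 7 core subunits, 27 supernumerary subunits, 7 assembly factors of the Ndufaf series and 3 further symbols that share the prefix (Ndufa4, Ndufa4l2 and Ndufa10l1). RNA came from the hearts of 6 adult male Wistar rats, an outbred laboratory strain, with 1 library per rat. The doxorubicin group (3 rats) received doxorubicin hydrochloride, an anthracycline chemotherapy drug, at 3.75 mg/kg by tail vein each week for 4 weeks. The control group (3 rats) received the vehicle, 0.9% sodium chloride, on the same schedule. The labels gave no genotype difference between the groups, no age in weeks, no heart chamber and no interval after the last injection.

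Complex I is the entry point of electrons from NADH into the mitochondrial respiratory chain, and it couples their transfer to ubiquinone to proton pumping across the inner membrane. It is shaped like an L, with a matrix arm that holds the flavin and the iron-sulfur clusters and a membrane arm that pumps protons. Core subunits carry out catalysis and are partly encoded in the mitochondrial genome, supernumerary subunits surround and stabilise the core, and assembly factors build the complex without remaining in it. The heart, whose contraction depends on oxidative phosphorylation, is rich in the complex, and doxorubicin is known to accept electrons from it and to cycle between its quinone and semiquinone forms.

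Library totals ranged from 2219685 to 3508282 counts, and libraries are named below by group and by the replicate number of their titles. Levels are in CPM, counts scaled to the library total with a trimmed mean of M-values (TMM) factor. A log2 fold change is doxorubicin minus control from the fit over all symbols. CPM is not per length, so levels are not compared between genes. Of 10 cardiomyocyte markers 9 were in the table and all 9 were tested, 7 of them below control. They summed to 114726 to 131239 CPM in control and 97096 to 109050 CPM in doxorubicin libraries. Lowest in log2 fold change was Myh6, at -0.73, where the others ranged from -0.45 to 0.19. Myh6 had 18856, 26379 and 28539 CPM in control and 11449, 20903 and 12112 CPM in doxorubicin libraries. With Myh6 left out, the sums of the groups overlap. Control library 1 stood apart. It had the atrial light chain transcript Myl7 at 164 CPM, against 2.06 to 6.42 CPM in the other 5 libraries, and a summed blood cell marker level of 6966 CPM, against 675 to 2533 CPM. Its level of a transcript, relative to the mean of the 6 libraries, also decreased with gene span (Spearman's rho -0.37 across 8987 genes, which are not independent replicates), where the other libraries had rho between -0.04 and 0.30. The 5 tested blood markers of 6 were all below control, and Alas2 was listed at 0. The 4 atrial markers, 3 of them tested, summed to 187 to 700 CPM in control and 287 to 3286 CPM in doxorubicin libraries. Nppa, a natriuretic peptide gene also known to be induced in stressed ventricle, was the largest part of that sum in each library. It had 161 to 444 CPM in control and 277 to 3252 CPM in doxorubicin libraries. In control library 1 Nppa was 444 of 700 CPM, with Myl7 at 164 CPM, Myl4 at 68.4 CPM and Sln at 22.9 CPM. The other tested markers, Myl7 and Myl4, were below control. Summed macrophage markers were 268 to 282 CPM in control and 322 to 528 CPM in doxorubicin libraries, with 9 of 10 above control. Of 4 adipocyte markers only Fabp4 was tested, a gene also expressed in capillary endothelium, at 814 to 1077 CPM in control and 650.2 to 749.5 CPM in doxorubicin libraries, while Adipoq was at 0 to 2.67 CPM and Cidec was listed at 0. Fibroblast, endothelial and smooth muscle sums overlapped between the groups, and none of the 4 lymphocyte markers in the table passed the filter. The part of these differences in the complex I result was not tested, and in whole tissue fewer cells of a type and less RNA per cell cannot be told apart.

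Complex I transcripts were lower in doxorubicin hearts for nearly all subunits, but no single member passed the adjusted threshold. Of 44 members 40 passed the filter on low counts. The median log2 fold change of the 31 tested subunits, core and supernumerary together, was -0.42, a change of -25.5% in level, and 30 of the 31 were below control. Over all 9205 symbols tested the median was 0.02, and 47.9% were below control. Of the 40 tested members 0 had an adjusted p under 0.05 in edgeR's quasi-likelihood test, where the share over all symbols was 0.0543%. The smallest adjusted p among members was 0.258, for Ndufaf6. At an unadjusted p under 0.05, 15 of the 40 were lower and 0 were higher, against 4.11% of all symbols lower and 4.00% higher. Members share the same libraries, so such counts of members are not counts of independent results. DESeq2 called 0 members after adjustment, where the share over all symbols was 0.826%, and 16 lower at an unadjusted p under 0.05, against 3.77%. Limma voom called 0 members after adjustment and 14 lower at an unadjusted p under 0.05, against 4.26%. That count of members was 6 with library size only as the scaling, against 2.46% of all symbols, and 3 with voom and sample weights, against 4.18%.

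All 3 doxorubicin libraries lay below all 3 control libraries for 15 of the 40 members, where 7.06% of all symbols did so, and above them for 0, against 6.39%. The members summed to 2.49%, 2.02% and 2.10% of all counts in control libraries 1, 2 and 3 and to 1.78%, 1.91% and 1.76% in doxorubicin libraries 1, 2 and 3. The widest Wilson 95% interval of these shares, that of control library 2, ran from 2.00% to 2.04% and covers counting error only. The summed share of each doxorubicin library was thus below that of each control library, with control library 1 highest.

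The size of the difference depended on control library 1. It held the highest level of the 6 libraries for 32 of 40 members, 80.0%, against 26.7% of all symbols tested. Its median subunit level was 0.57 above the 6-library mean on the log2 scale, while control libraries 2 and 3 were at -0.06 and 0.09 and doxorubicin libraries 1, 2 and 3 at -0.24, -0.09 and -0.24. Without control library 1 the median log2 fold change of the subunits was -0.23, all 31 subunits were below control, against 46.8% of all symbols, and 2 members (Ndufs8 and Ndufaf6) were lower at an unadjusted p under 0.05, where 2.65% of all symbols were. In that fit the groups did not overlap, with doxorubicin below, for 12 of 40 members and for 10.1% of all symbols. Leaving out doxorubicin library 1, 2 or 3 also gave fewer members lower at an unadjusted p under 0.05 in edgeR's test, 7, 10 and 2. The shares over all symbols were 2.88%, 4.39% and 2.82%. Without control library 3 the count was 10, against 3.35% of all symbols, and without control library 2 it rose to 21, against 4.50%. Leaving out control library 2 gave 26 members without overlap, where 13.3% of all symbols had none.

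**Figure D1:**
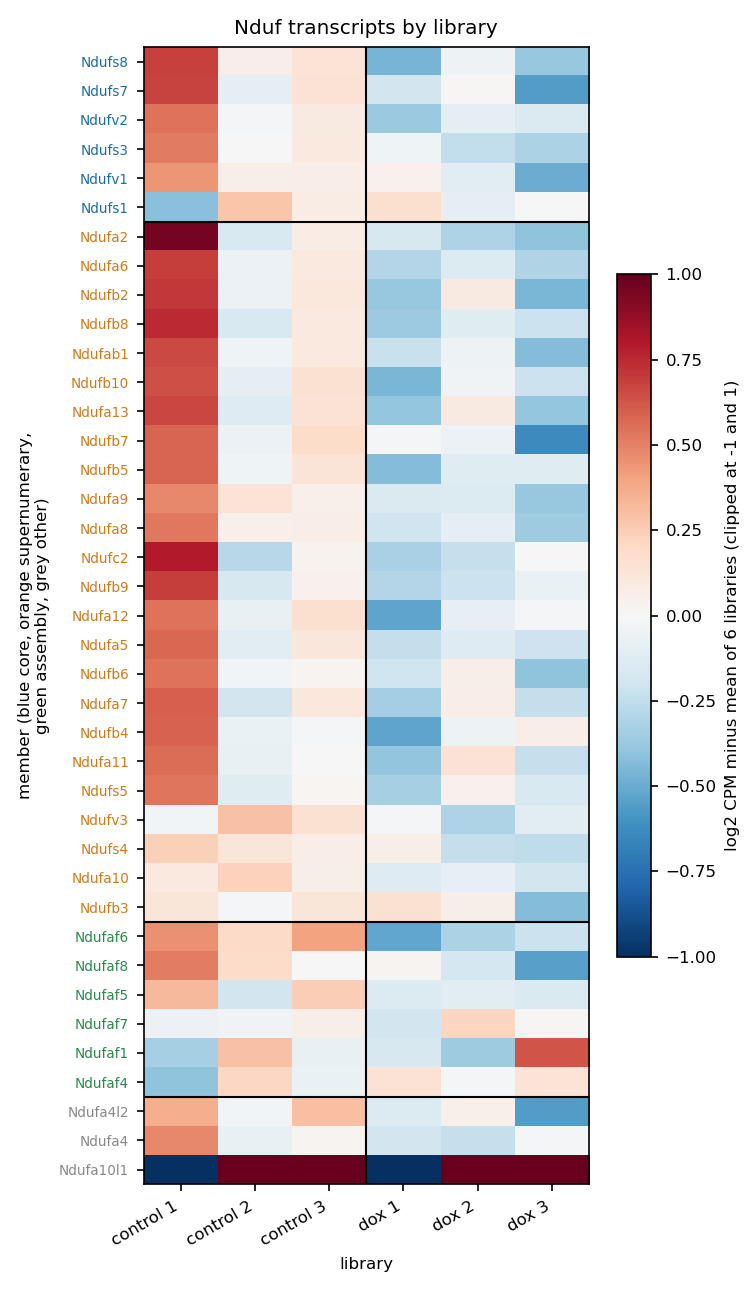
Each row is 1 of 39 tested members and each column a library; colour is log2 CPM minus the member's mean over the 6 libraries, clipped at -1 and 1. Control library 1 is the highest library for 31 of them, and subunit rows are mostly below their mean in the 3 doxorubicin columns.

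The core subunits encoded in the nucleus were tested for all 7 members, on 1065 to 6303 counts per library. Their median log2 fold change was -0.42 (6 of 7 below control), and it was -0.23 without control library 1. Doxorubicin libraries lay below all control libraries for 5 of the 7, against 7.06% of all symbols. The 7 mitochondrially encoded core subunits were not analysed here, as the count table listed none of them under an Mt-nd symbol.

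Ndufs8, which carries a pair of iron-sulfur clusters on the path to ubiquinone, had the smallest p of the core. Its level was 756, 494 and 519 CPM in control libraries 1, 2 and 3 and 342, 456 and 363 CPM in doxorubicin libraries 1, 2 and 3. The highest doxorubicin value was under the lowest control value. The fitted difference was -0.61 log2 units (SE 0.21). Its unadjusted p was 0.0115 and its adjusted p 0.419 in edgeR's quasi-likelihood test. The difference was -0.38 without control library 1.

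Ndufs7 carries the last iron-sulfur cluster before ubiquinone. It had 1067, 626 and 737 CPM in control and 589, 673 and 454 CPM in doxorubicin libraries, so that doxorubicin library 2 was above control library 2. Its log2 fold change was -0.50 (SE 0.23, unadjusted p 0.0430 by the same test). Without control library 1 it was -0.25.

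Ndufs3, a structural core subunit of the matrix arm, had 969.9, 675 and 723 CPM in control and 656, 570.1 and 542 CPM in doxorubicin libraries. Its groups did not overlap, and its log2 fold change was -0.42 (SE 0.19). The NADH-oxidising tip of the matrix arm holds Ndufv1, which binds NADH and the flavin, Ndufv2 and Ndufs1, which carry iron-sulfur clusters. Ndufv1 had 2321, 1781 and 1789.9 CPM in control and 1765, 1592 and 1213 CPM in doxorubicin libraries, a log2 fold change of -0.37 (SE 0.20). Ndufv2 had 1579, 1069 and 1153 CPM in control and 837, 1013 and 981 CPM in doxorubicin libraries, a log2 fold change of -0.42 (SE 0.20). For both the doxorubicin values were all under the control values, with control libraries 2 and 3 only slightly above the highest of them. Without control library 1 the log2 fold changes of Ndufs3, Ndufv1 and Ndufv2 were -0.24, -0.22 and -0.23.

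Ndufs1, the largest subunit of the matrix arm, was the exception among the core. It had 943, 1522 and 1326 CPM in control and 1408, 1173 and 1259.7 CPM in doxorubicin libraries. Control library 1 was its lowest library, whereas it was the highest for the other 6 core transcripts. The fitted difference was 0.02 log2 units (SE 0.20), at an adjusted p of 0.987 in edgeR's test. The log2 fold change of Ndufs1 turned to -0.15 without control library 1, -0.017 with a correction for gene span and -0.050 without doxorubicin library 1. Ndufs1 spans 33.3 kb, against a median of 7.64 kb over the core members.

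**Figure D2:**
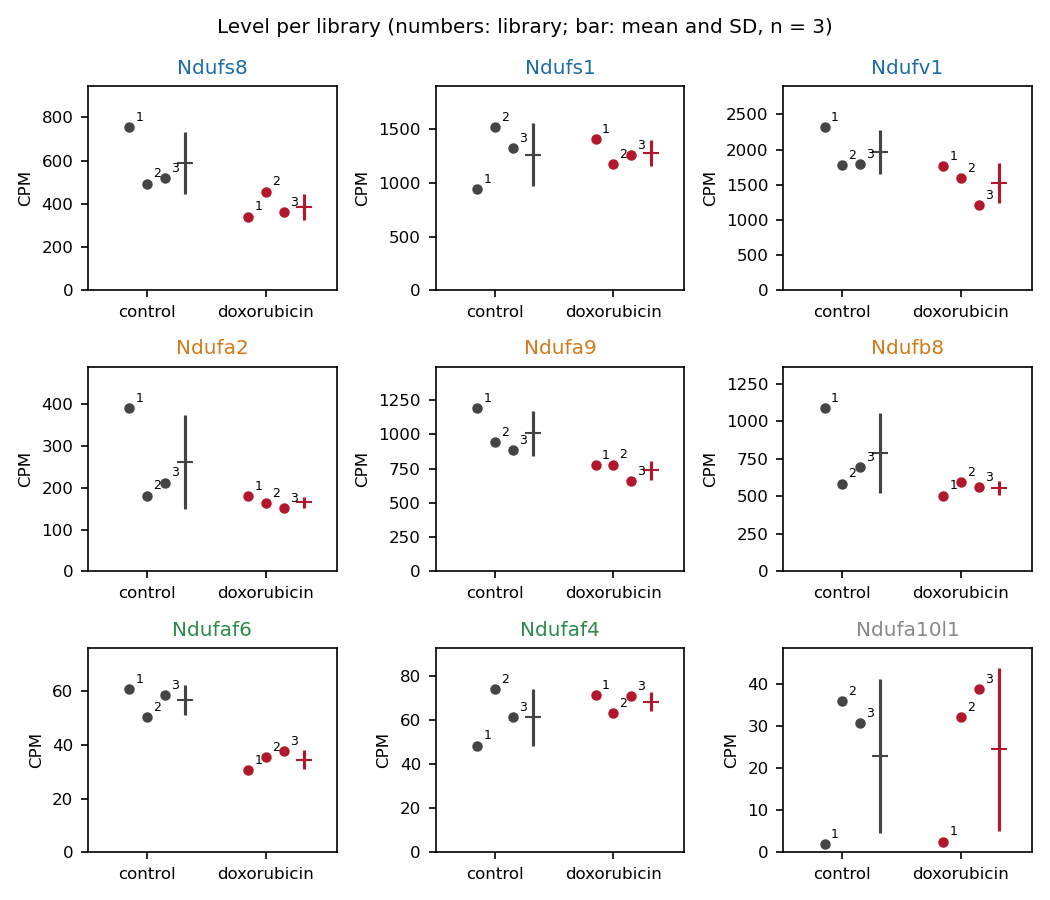
Level in CPM of 9 members in each library, with the library number beside each point and a bar for the group mean and SD (n = 3); titles are coloured by class (blue core, orange supernumerary, green assembly factor, grey other). Ndufs8 and Ndufaf6 do not overlap between groups, Ndufs1 overlaps, and Ndufa10l1 is near 0 in library 1 of both groups.

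Of the 27 supernumerary subunits 24 were tested, and all 24 had a fitted log2 fold change under 0, from -0.67 to -0.13. The median was -0.43, and -0.23 without control library 1, when all 24 remained under 0. At an unadjusted p under 0.05, 9 of the 24 were lower and 0 higher, against 4.11% and 4.00% of all symbols, and the groups did not overlap for 9, with doxorubicin below, against 7.06% of all symbols. The 8 smallest unadjusted p-values, in edgeR's test, ran from 0.0194 for Ndufa2 to 0.0398 for Ndufb8. By arm, the 8 tested supernumerary members of the matrix arm had a median of -0.42 and 5 without overlap, and the 15 of the membrane arm a median of -0.44 and 3 without overlap, both to be read against the same 7.06%. The difference between the arms was not tested. Without control library 1 the arm medians were -0.24 and -0.20. Ndufab1 is in both arms.

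In the matrix arm, Ndufa2, a small subunit with a thioredoxin-like fold, had the most negative value of the subunits. It had 391, 181 and 212 CPM in control and 179.8, 163 and 152 CPM in doxorubicin libraries, a difference of -0.67 on the log2 scale (SE 0.25). By edgeR's test the adjusted p was 0.490. Control library 1 was far above the other 5, and without it the log2 fold change was -0.25. Ndufa6, which docks an acyl carrier protein onto the complex, had 711, 422 and 472 CPM in control and 359, 401 and 357 CPM in doxorubicin libraries, a log2 fold change of -0.53 (SE 0.21). Ndufa9, a nucleotide-binding subunit near the quinone site, had 1192, 942 and 886 CPM in control and 773, 779 and 658 CPM in doxorubicin libraries, a log2 fold change of -0.45 (SE 0.19). These 3 genes had no overlap between the groups. Ndufa9 was among the less dependent on control library 1, at -0.31 without it, where Ndufa6 was at -0.26. Ndufs4, whose loss causes Leigh syndrome, had 359, 330.1 and 319 CPM in control and 317, 258 and 256 CPM in doxorubicin libraries, with a log2 fold change of -0.28 (SE 0.18). The gap between control library 3 and doxorubicin library 1 was small for Ndufs4.

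Ndufab1, the mitochondrial acyl carrier protein, is bound in the complex in both arms and also serves mitochondrial fatty acid synthesis. It had 1311, 804 and 886 CPM in control and 709, 798 and 612 CPM in doxorubicin libraries, with no overlap but with doxorubicin library 2 just under control library 2. Its log2 fold change was -0.50 (SE 0.21), and -0.25 without control library 1.

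In the membrane arm, Ndufa8, a subunit on the intermembrane-space face, had 491, 352 and 357 CPM in control and 295, 320.1 and 265 CPM in doxorubicin libraries, a log2 fold change of -0.45 (SE 0.19). Ndufb5, a membrane-spanning subunit, had 1183, 767 and 863 CPM in control and 586, 727 and 728 CPM in doxorubicin libraries, a log2 fold change of -0.46 (SE 0.20). The groups did not overlap for either. Ndufb10, on the intermembrane-space face, had 764, 459.8 and 544 CPM in control and 357, 478 and 422 CPM in doxorubicin libraries, and Ndufb8, a membrane-spanning subunit, had 1089.8, 585 and 693 CPM and 506, 597 and 561 CPM. For both genes doxorubicin library 2 was above control library 2, and the log2 fold changes were -0.49 (SE 0.21) and -0.51 (SE 0.22). Ndufb9, which binds the other copy of the acyl carrier protein, had 1669, 924 and 1064 CPM in control and 845, 889 and 986 CPM in doxorubicin libraries. Doxorubicin library 3 was above control library 2. The log2 fold change of Ndufb9, -0.43 (SE 0.22), became -0.13 without control library 1, and Ndufa8, Ndufb5, Ndufb10 and Ndufb8 were then at -0.27, -0.26, -0.26 and -0.20.

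The supernumerary values nearest to 0 were those of Ndufb3, Ndufa10 and Ndufs4. Ndufb3, a membrane-arm subunit, had 307, 279 and 308 CPM in control and 314, 295 and 209 CPM in doxorubicin libraries. Doxorubicin library 1 was its highest library and doxorubicin library 3 its lowest. The log2 fold change of -0.13 (SE 0.19) turned to 0.042 without doxorubicin library 3. Ndufa10, on the matrix face of the membrane arm with a nucleoside kinase fold, had 761, 836 and 743 CPM in control and 652, 673 and 625 CPM in doxorubicin libraries. Its groups did not overlap although its log2 fold change was only -0.26 (SE 0.17), and this value was -0.27 without control library 1. The other 12 tested supernumerary members were Ndufa5, Ndufa7, Ndufa11, Ndufa12, Ndufa13, Ndufb2, Ndufb4, Ndufb6, Ndufb7, Ndufc2, Ndufs5 and Ndufv3. They ranged from -0.52 (Ndufb2) to -0.29 (Ndufv3) in log2 fold change, on 49 to 2430 counts per library, 1 of them (Ndufb2) at an unadjusted p under 0.05 and 1 (Ndufa5) without overlap.

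**Figure D3:**
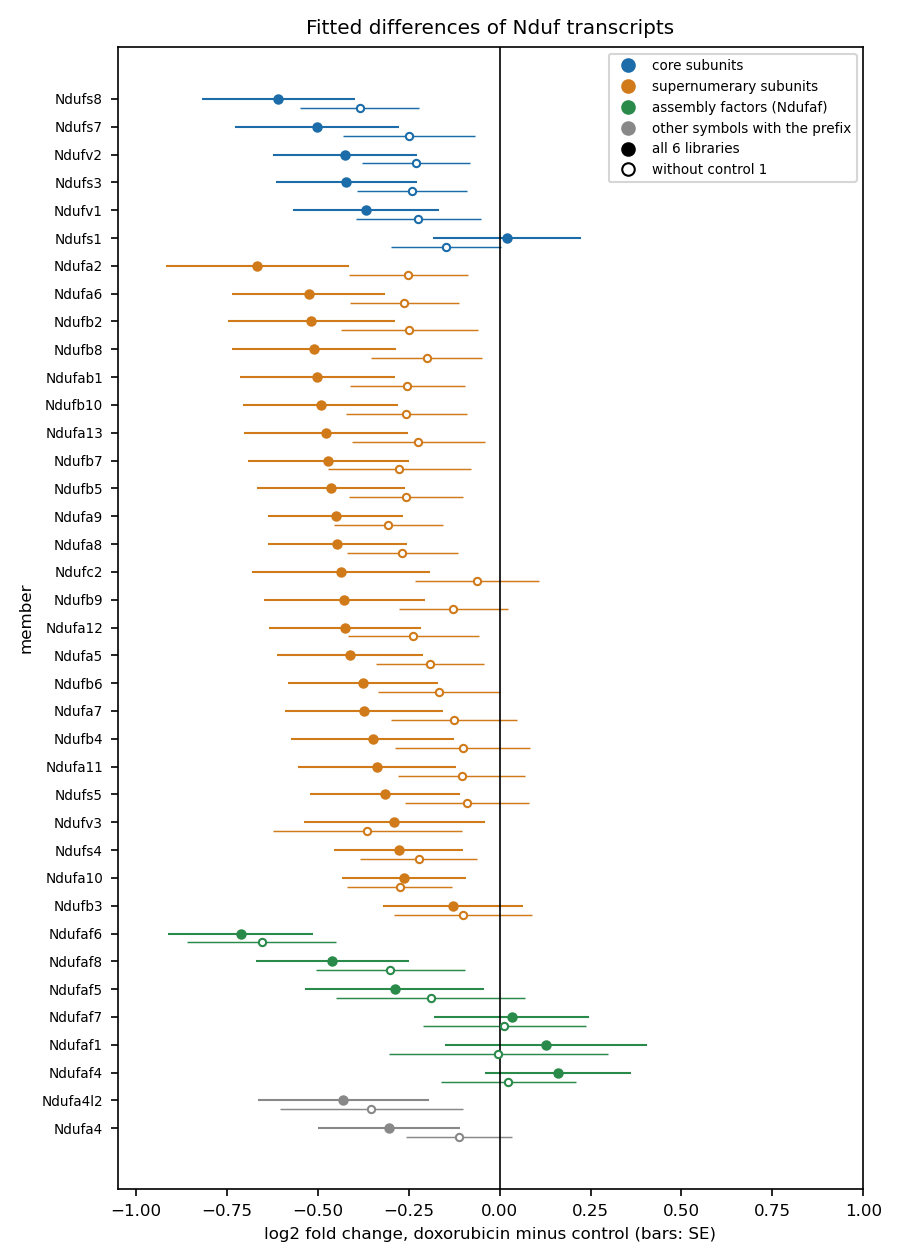
Fitted log2 fold change (doxorubicin minus control) with its SE for 38 tested members, Ndufa10l1 left out for its SE of 1.21; filled points use all 6 libraries and open points leave out control library 1. All supernumerary points are under 0 in both fits, and most open points are nearer to 0.

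Assembly factors lay on both sides of the control level. Of 7 Ndufaf symbols 6 were tested, on 42 to 298 counts per library, 3 were below control and 3 above, and the median log2 fold change was -0.13. Without control library 1 it was -0.10, without doxorubicin library 3 it was -0.25, without doxorubicin library 1 -0.073 and without control library 3 -0.081. The difference between assembly factors and subunits was not tested, and standard errors were 0.20 to 0.28 for assembly factors and 0.17 to 0.25 for supernumerary subunits.

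Ndufaf6, a factor of the phytoene synthase fold needed early in assembly, had the lowest value of all 40 members. It had 60.7, 50.2 and 58.5 CPM in control libraries 1, 2 and 3 and 30.5, 35.3 and 37.7 CPM in doxorubicin libraries 1, 2 and 3. The group means were 56.5 ± 5.54 and 34.5 ± 3.68 CPM (SD, n = 3), and the groups were well apart. The fitted difference was -0.71 log2 units (SE 0.20), a change of -38.9%, at an unadjusted p of 0.00317 and an adjusted p of 0.258 in edgeR's quasi-likelihood test. It kept its direction in all 22 alternatives, from -0.78 to -0.62, with an adjusted p from 0.152 to 0.659, and was -0.65 without control library 1.

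Ndufaf8 stabilises Ndufaf5, which hydroxylates an arginine of Ndufs7 during assembly. Ndufaf8 had 114, 90.6 and 79.8 CPM in control and 81.5, 70.5 and 54.5 CPM in doxorubicin libraries, where doxorubicin library 1 overlapped control library 3. Its log2 fold change was -0.46 (SE 0.21, unadjusted p 0.0453 by edgeR's test), and -0.30 without control library 1. Ndufaf5 had 26.7, 18.7 and 25.3 CPM in control and 19.3, 19.7 and 19.2 CPM in doxorubicin libraries, a log2 fold change of -0.29 (SE 0.25). The doxorubicin values of Ndufaf5 all lay just above its lowest control value.

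The remaining 3 tested factors had values near or above 0. Ndufaf4, which acts on the quinone module, had 48.5, 74.2 and 61.3 CPM in control and 71.3, 63.3 and 70.7 CPM in doxorubicin libraries, a log2 fold change of 0.16 (SE 0.20). Ndufaf1, part of the membrane-arm assembly complex, had 27.9, 43.5 and 33.5 CPM in control and 31.5, 27.5 and 55.1 CPM in doxorubicin libraries, a log2 fold change of 0.13 (SE 0.28). Doxorubicin library 3 alone was above all others for Ndufaf1, and without it the value was -0.23. Ndufaf7, a methyltransferase, had 30.5, 31.1 and 33.2 CPM in control and 27.9, 37.1 and 32.1 CPM in doxorubicin libraries, a log2 fold change of 0.03 (SE 0.21) that was -0.065 without doxorubicin library 2. The groups overlapped for all 3.

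Assembly factors named without the prefix were taken from a list of 14, of which 11 were tested. None of the 11 had an unadjusted p under 0.05 in edgeR's test, 8 were below and 3 above control, and the median log2 fold change was -0.20, or -0.08 without control library 1. The lowest was Ecsit, a partner of Ndufaf1, at -0.39 (SE 0.19), and the highest was Nubpl, which delivers iron-sulfur clusters to the complex, at 0.71 (SE 0.33). Nubpl had few reads, 18 to 34 counts in the control and 29 to 61 in the doxorubicin libraries, and its groups overlapped. Acad9, a further partner of Ndufaf1, had a log2 fold change of 0.12 (SE 0.18).

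**Figure D4:**
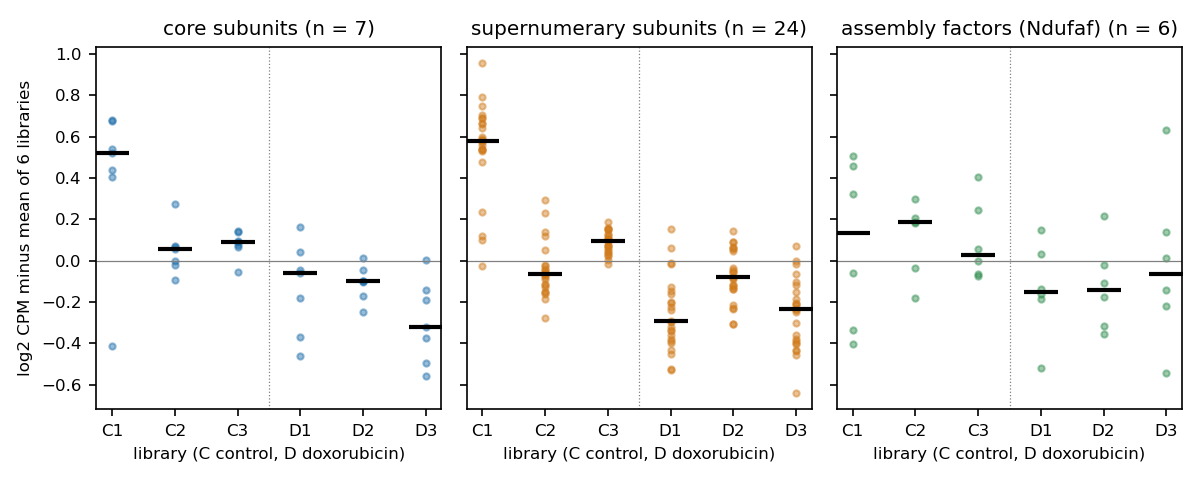
Log2 CPM minus the member's mean over the 6 libraries, for core subunits (n = 7), supernumerary subunits (n = 24) and assembly factors (n = 6); each point is a member and the black bar the median, with C for control and D for doxorubicin libraries. The median of control library 1 is at 0.52, 0.58 and 0.13 in the 3 classes.

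Of the 3 other symbols, Ndufa4 encodes a protein now assigned to cytochrome c oxidase. It had 1584, 1077 and 1159 CPM in control and 1002, 969 and 1126 CPM in doxorubicin libraries, a log2 fold change of -0.30 (SE 0.19) that was -0.11 without control library 1. Ndufa4l2, its hypoxia-inducible paralog, had 39.7, 30.2 and 38.1 CPM in control and 27.9, 31.8 and 20.6 CPM in doxorubicin libraries, a log2 fold change of -0.43 (SE 0.24). Both overlapped between the groups through doxorubicin library 3 for Ndufa4 and doxorubicin library 2 for Ndufa4l2.

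Ndufa10l1, listed by name as a copy of Ndufa10, was low in 1 library of each group. Its counts were 5, 81 and 108 for control libraries 1 to 3, and for doxorubicin libraries 1 to 3 they were 8, 103 and 132. As a share of Ndufa10 and Ndufa10l1 counts together it was 0.250% (Wilson 95% interval 0.107 to 0.584) and 0.392% (0.199 to 0.772) in library 1 of the control and doxorubicin groups. In the other 4 libraries the share was 3.96% to 5.86%, with a lowest interval bound of 3.29%. How reads common to both genes were counted was not stated, so the split between them is uncertain.

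Of the 4 members removed by the filter, Ndufs6 had 0 to 4 counts per library, and Ndufa1, Ndufb11 and Ndufaf3 were listed at 0 in all 6. Ndufa1, Ndufb11 and Ndufs6 are subunits of mammalian complex I, so these listings do not give the level of the transcripts. The 3 counts taken as the detection floor equal 0.852 to 1.33 CPM. Of the 40 tested members 18 have named pseudogenes or copies in the RefSeq gene list, up to 11 for Ndufb4. Another protein-coding gene overlaps 8 of the 40, among them Ndufa2, Ndufs3, Ndufb5 and Ndufb9. Ndufa2, the subunit with the most negative value, also has 4 named pseudogenes. The levels of all these members are uncertain where the counting could split or drop shared reads.

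Subunit genes were short, and the fitted differences went with gene span. The median span of the tested members was 7.41 kb, against 23.4 kb over all tested symbols with a span. Across 37 subunits and assembly factors, which share libraries, Spearman's rho of log2 fold change on span was 0.40 with all 6 libraries and 0.02 without control library 1. Over all genes rho was 0.22 and 0.03. A fit that removed the trend on span in each library gave a median log2 fold change of -0.35 over the 31 subunits, with 31 of 31 under 0, against 48.3% of all symbols, and 11 lower at an unadjusted p under 0.05, where 4.47% of all symbols were. Ndufaf6 was at -0.72 and Ndufs8 at -0.50 in that fit. The subunit median was thus nearer to 0 after the correction but remained below the median of all genes, which was 0.01.

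**Figure D5:**
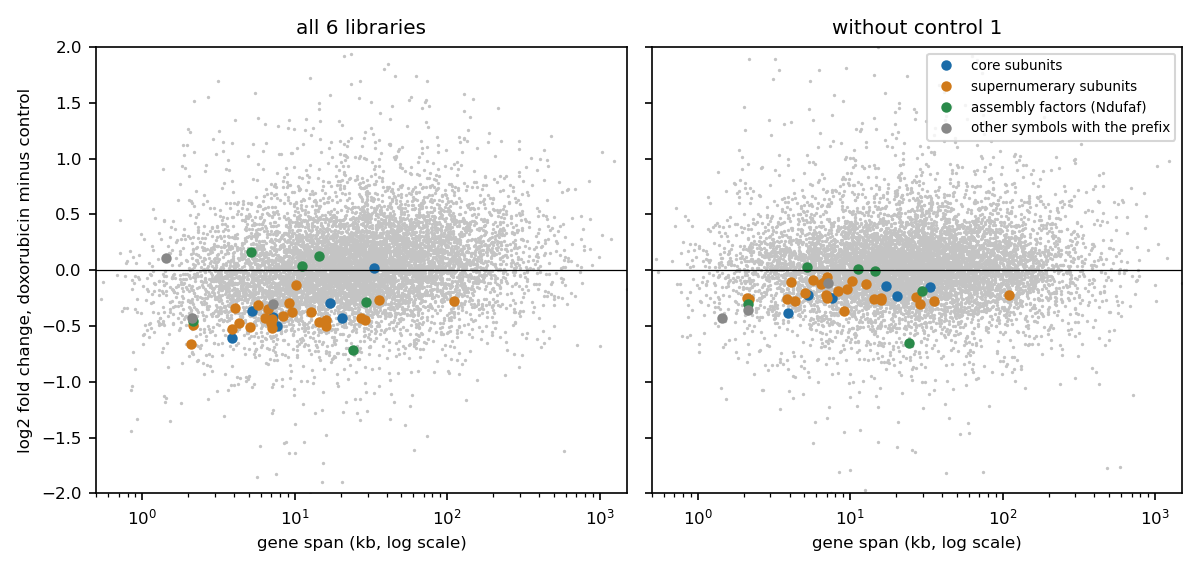
Log2 fold change (doxorubicin minus control) against gene span on a log axis, for all tested symbols (grey; points outside the axes are not shown) and the members (coloured by class), with all 6 libraries on the left and without control library 1 on the right. Members lie mostly under 0 in both panels, and the slope with span is flatter on the right.

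The start regions of the member genes were searched for the motifs of 4 regulators of mitochondrial genes. RefSeq start regions of 300 bases (250 before and 50 from the start, assembly GRCr8, a later assembly than that of the counts) were found for 35 of the 40 tested members. Exact matches on either strand were counted for YY1 (AAGATGGC), NRF1 (GCGCATGCG), GABPA (CCGGAAGT) and the estrogen-related receptors (AAGGTCA). These letters do not overlap between motifs in any member, and 18 of the 35 regions had none of the 4. The YY1 letters were in 8 of 35 member regions (22.9%), against 6.02% of the regions of all tested symbols and 3.44% of all regions in the table. The other motifs were each in 3 of 35 (8.57%), against 3.53% of the regions of tested symbols for NRF1, 9.04% for GABPA and 2.56% for the estrogen-related receptors. Over all regions in the table these shares were 1.66%, 4.01% and 4.37%. A match is a description of the letters and not evidence of binding. Whether the letters go with the log2 fold changes was not tested.

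All 8 YY1 matches read in the direction of transcription, and they began between base -1 and base 27, counting the annotated start as base 1. The YY1 letters contain ATG, the letters of a start codon. Whether that ATG is the start codon of these genes was not examined, so strand and position cannot be read as traits of a regulator's motif. Of the 8, 7 lay after the start, where 54.6% of the 445 tested symbols with the letters had them. Windows of 30 bases are printed for 7 of them, from each class of members, to show the letters around the match, with the YY1 letters in capitals and each read 5′ to 3′ on the gene's strand.
Ndufs7 (GRCr8, chr7:10110476-10110505, minus strand): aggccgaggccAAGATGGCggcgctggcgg
Ndufa6 (GRCr8, chr7:115750284-115750313, minus strand): gcttccttagcAAGATGGCggccgcggcca
Ndufa9 (GRCr8, chr4:161374142-161374171, minus strand): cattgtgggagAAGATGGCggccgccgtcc
Ndufb8 (GRCr8, chr1:253362897-253362926, minus strand): cggagaaggtgAAGATGGCggcgtcccggg
Ndufs4 (GRCr8, chr2:47794892-47794921, minus strand): ttgcccacaggAAGATGGCggcggtctcaa
Ndufaf8 (GRCr8, chr10:105879899-105879928, plus strand): aggcagggcccAAGATGGCggcgcccacaa
Ndufa4l2 (GRCr8, chr7:65242157-65242186, plus strand): gacactggaacAAGATGGCaggaaccagtc
The window of Ndufa4l2 is unlike the others in the letters after the match, and its match is the one that begins before the start. The 8 members with the match were Ndufs7, Ndufa2, Ndufa6, Ndufa9, Ndufb8, Ndufs4, Ndufaf8 and Ndufa4l2, and their log2 fold changes ranged from -0.67 to -0.28.

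The NRF1 letters were in the start regions of Ndufa11, Ndufaf4 and Ndufaf5, where they matched on both strands, and the GABPA letters in those of Ndufs1, Ndufa13 and Ndufb7. The windows of the assembly factors Ndufaf4 and Ndufaf5 and of Ndufa11 are printed with the NRF1 letters, matches on both strands joined, in capitals, and that of Ndufs1 with the GABPA letters on the other strand in capitals.
Ndufa11 (GRCr8, chr9:1637510-1637539, plus strand): gcgctgtGCGCATGCGCATGCGCacaggcc
Ndufaf4 (GRCr8, chr5:43401627-43401656, plus strand): gcagtagtccGCGCATGCGCccctgtggaa
Ndufaf5 (GRCr8, chr3:147961587-147961616, plus strand): agtccctttgGCGCATGCGCacaatagaaa
Ndufs1 (GRCr8, chr9:72073787-72073816, minus strand): aggcctcggctACTTCCGGcggaactgcag
Ndufaf4 and Ndufs1 were among the 5 members with values above 0, and Ndufa11 was at -0.34 and Ndufaf5 at -0.29. The estrogen-related receptor letters were in the regions of Ndufb2, Ndufb4 and Ndufs5, with log2 fold changes of -0.52, -0.35 and -0.32.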

How the data were processed

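The authors deposited raw counts per annotated feature row for 6 libraries, without normalization. Per the labels' protocols, Watchmaker mRNA libraries were sequenced on an Illumina NovaSeq instrument, and the submitters' processing notes name FastQC, Trimmomatic, STAR, HTSeq and the build mRatBN7.2. The annotation, counting mode and strand setting are not given in the sources used here. The 18473 rows were summed to 17487 symbols, and groups were taken from the sample titles.

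The main test was edgeR 4.0.16 (R 4.3.3) quasi-likelihood with TMM factors, robust dispersion and filterByExpr (minimum count 10, minimum total 15), which kept 9205 symbols. P-values were adjusted by Benjamini-Hochberg over all of them, with a threshold of 0.05. The standard error is the absolute log2 fold change divided by the square root of F, and log2 CPM has a prior count of 2. The fit was run on simulated data with larger fold changes than that of any member, so that run does not cover differences of the size seen here. Samples are separate rats, and the labels give no batch.

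The members and lists were chosen with earlier results of these data known. Named with values were the core members, of which 1 is not reported here by name, the assembly factors, the 8 supernumerary members with the smallest p, the 3 with the highest CPM and the 3 with the highest log2 fold change. Ecsit, Nubpl and Acad9 were named after their values were seen. Alternatives were other scaling factors, filters, DESeq2 1.42.0, limma 3.58.1 voom with and without sample weights, the replicate block, a gene span correction (lowess on span, from RefSeq GRCr8), other treatments of repeated rows and leaving out each library. Python 3.11.15 with pandas 2.3.3, scipy 1.17.1 and matplotlib 3.10.9 made the tables and figures.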

Additional observations from a re-analysis of the deposited data

How the results depend on the processing

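The core and supernumerary medians stayed under 0 in all 22 alternatives, from -0.51 to -0.23 and from -0.54 to -0.23, and 0 members passed the adjusted threshold in any of them. Causes of these changes were not tested, apart from fewer libraries or other sets of genes by construction. Assembly factors had 42 to 298 counts per library and Ndufa10l1 had 5 to 132.

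The 15 members lower at an unadjusted p under 0.05 became 6 with library size only, where 2.46% of all symbols were lower, 3 with voom and sample weights (4.18%), and 2 to 21 with 1 library left out (2.65% to 4.50%). The members without overlap numbered 12 to 26 with 1 library left out, against 10.1% to 13.4% of all symbols. The assembly factor median of -0.13 became -0.040 with library size only, where the median over all genes was 0.10, and was -0.25 to -0.073 with 1 library left out.

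With the replicate block 4 members were lower at an unadjusted p under 0.05, against 3.05% of all symbols, and 4 with the block and the gene span correction together, against 3.47%. Over all tested symbols, same-numbered libraries did not deviate together (mean correlation -0.07, from -0.19 to 0.02). These correlations cannot show that the numbers share nothing, since a factor acting on few genes would hardly move them. Ndufa10l1 was low in library 1 of both groups, at 5 counts in control and 8 in doxorubicin.

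The 5 genes past the adjusted threshold over all symbols became 76 with DESeq2, 61 with no filter, 14 with voom and sample weights, 13 with the replicate block, 13 with the gene span correction, 15 with both, 1 each with a mean CPM of at least 5, with non-robust dispersion and with only symbols on 1 row, 0 with voom and with library size only, and 0 to 35 with 1 library left out.

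Signs turned in 14 of 879 member values, all for 5 members. With 1 library left out, the log2 fold change of Ndufs1 ranged from -0.15 (without control library 1) to 0.18 and was also under 0, at -0.050, without doxorubicin library 1. It was -0.075 with voom and sample weights, -0.017 with the span correction and -0.00253 with the span correction and block. The log2 fold change of Ndufaf1 ranged from -0.23 (without doxorubicin library 3) to 0.32, with -0.0030 without control library 1, and was -0.054 with voom and sample weights. The log2 fold change of Ndufa10l1 ranged from -0.43 (without control library 1) to 0.64, with -0.12 and -0.39 without doxorubicin libraries 2 and 3, and was -0.70 with voom and sample weights. The log2 fold change of Ndufaf7 ranged from -0.065 (without doxorubicin library 2) to 0.13, and the log2 fold change of Ndufb3 from -0.24 to 0.042 (without doxorubicin library 3).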
